A study of Mus musculus with 4 samples.

Results

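The genes described here are the aminoacyl-tRNA synthetases of the mouse, the enzymes that join each amino acid to its tRNA. They were found by name among the features of the count matrices, and all 36 listed symbols were present among 32286 features. The 20 cytosolic members carry names without a final 2, and the 16 mitochondrial members carry names with a final 2. *Farsa* and *Farsb*, the alpha and beta subunits of the cytosolic phenylalanyl enzyme, counted as cytosolic. *Mars1* is listed in the files under its older symbol *Mars*.

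Single-nucleus RNA-seq libraries (10x 3′ kit) were made from nuclei sorted from cortex and hippocampus of 5-week-old mice. The 4 libraries, each from 1 mouse on the C57BL/6J background, carry the label Sel1L flox/flox (2 libraries, written fl/fl-labelled) or Sel1L Syn-Cre (2 libraries, written SynCre-labelled). Mice of both labels carry floxed *Sel1l* alleles, and those labelled Sel1L Syn-Cre also carry a Cre recombinase under the Synapsin I promoter, which is active in postmitotic neurons. SEL1L is the adaptor of the HRD1 ubiquitin ligase in the degradation of misfolded proteins of the endoplasmic reticulum. The comparison asks what its loss from a part of the neurons does to RNA in each cell type. By immunostaining, the study reports that this part differed by region and that SEL1L was largely kept in the hippocampal field CA1. The p-values measure the spread between 2 libraries per label.

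Cytosolic synthetases charge the tRNAs that serve protein synthesis on cytosolic ribosomes. Mitochondrial synthetases are encoded by separate nuclear genes, and they charge the tRNAs encoded by mitochondrial DNA. *Gars* and *Kars* are exceptions, since each gene makes both the cytosolic and the mitochondrial enzyme. Mitochondrial glutaminyl-tRNA is made by way of *Ears2* and an amidotransferase. Many cytosolic synthetase genes are known targets of ATF4, the transcription factor whose translation increases when eIF2α is phosphorylated.

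After filtering, the fl/fl-labelled libraries held 11092 and 7861 nuclei with 100678373 and 68582618 UMIs, and the SynCre-labelled libraries held 7531 and 6797 nuclei with 66885584 and 66073797 UMIs. *Sel1l* was at 97.1 and 90.0 CPM in the fl/fl-labelled libraries and at 155 and 128 CPM in the SynCre-labelled libraries. Reads from the transcript's 3′ end cannot tell if the floxed exon was lost, so these values do not check the label. Cre RNA had 408 and 0 UMIs in the fl/fl-labelled libraries and 236 and 221 UMIs in the SynCre-labelled libraries. The Cre RNA of fl/fl-labelled replicate 1 therefore goes against its label, and calls or list medians below are also given without this library. Its *Sel1l* level lay near that of the other fl/fl-labelled library, and whether the label is right was not tested. *Xist* was at 0.437 and 2.20 CPM in the replicate 1 libraries and at 1614 and 1474 CPM in the replicate 2 libraries, so sex follows the replicate number and not the label. Between 10 and 34 barcodes were shared by each pair of libraries.

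Counts were summed per library within all neuron-like nuclei and within 16 classes. These were 11 neuron subtypes, 4 glial or endothelial classes and a cluster with *Ikzf1* among its top genes. That cluster passed 5 markers of microglia and perivascular macrophages. It kept no cell type name, because its nuclei held few UMIs and these markers were not among its top genes. Class names rest on marker genes, and "Sst-like" stands for nuclei with the markers of somatostatin interneurons, "DG-like" for those of dentate gyrus granule neurons, and "OPC-like" for those of oligodendrocyte precursor cells. In sums of this kind, a change in which nuclei a class holds and a change in RNA per nucleus cannot be told apart. Values of single genes within a class are CPM scaled by the trimmed mean of M values (TMM), apart from Cre. Cre levels, marker sums and values of whole libraries are CPM of the UMI total alone. A gene was called where the edgeR adjusted p over all genes tested was below 0.05.

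All calls were of cytosolic members. Over the 16 classes, 41 of 311 tests of a cytosolic member passed, in 13 of the 20 genes, and each of these was higher in the SynCre-labelled libraries. With fl/fl-labelled replicate 1 left out, which leaves 1 fl/fl-labelled library in each fit, fewer passed and all were higher. Of 227 tests of a mitochondrial member, 0 passed with edgeR, and 12 had an unadjusted p below 0.05, of which 6 were higher. Among all genes, the lowest share with such a p was 448 of 8625, in endothelial-like nuclei. The highest was 2573 of 11842, in Sst-like nuclei. Without fl/fl-labelled replicate 1, no mitochondrial member was called either. The calls were 12 of 19 cytosolic members tested in OPC-like nuclei, 11 of 20 in DG-like nuclei, 10 of 19 in Sst-like nuclei, 4 of 20 in oligodendrocyte-like nuclei, 3 of 20 in Pvalb-like nuclei and 1 of 20 in L4/5 IT-like nuclei. In the same tests, the share of all genes called higher was 3.47% in OPC-like, 1.91% in DG-like, 4.82% in Sst-like, 0.802% in oligodendrocyte-like, 2.27% in Pvalb-like and 1.25% in L4/5 IT-like nuclei. The share called lower was 4.8% in OPC-like, 1.67% in DG-like and 3.98% in Sst-like nuclei, where 0 members of either group were called lower.

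**Figure D1:**
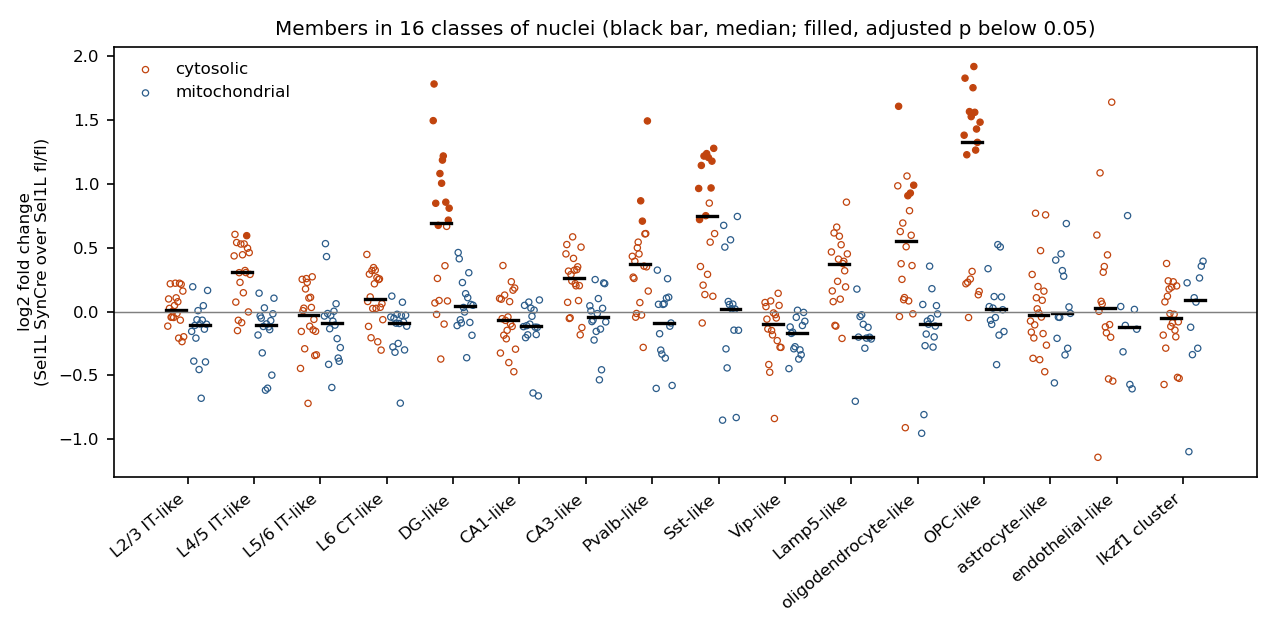
Log2 fold change (SynCre-labelled over fl/fl-labelled) of each tested member in 16 classes of nuclei. Points are genes, black bars are medians and filled points passed an edgeR adjusted p of 0.05. The cytosolic median was highest in OPC-like nuclei (1.33), and the mitochondrial medians lay between -0.20 and 0.09.

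The upstream sequences of the members were searched for TGATGNAA, the core of elements that ATF4 with a C/EBP partner is known to bind. Promoter windows of 250 bases before to 50 bases after the start came from RefSeq (GRCm38.p6), and the motif was searched on both strands. Of 20 cytosolic members, 13 had a window and 5 held the motif, which are *Aars*, *Gars*, *Iars*, *Tars* and *Yars*. Of 16 mitochondrial members, 14 had a window and 0 held it. For scale, 3.97% of all 32851 windows and 4.51% of 27025 genes held it. The stretch from 120 bases before to 20 bases after the start is printed for the 5 genes and for their mitochondrial counterparts, in the gene's orientation, with the motif in capitals as TGATGNAA or, on the other strand, TTNCATCA. *Gars* has no separate counterpart. The 5 genes are printed because they hold the motif, and called members without it are not printed.
Aars, chr8:111033722-111033861, plus strand: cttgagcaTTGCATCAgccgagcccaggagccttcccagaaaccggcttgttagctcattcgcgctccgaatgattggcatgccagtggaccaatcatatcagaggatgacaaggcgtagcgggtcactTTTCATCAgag
Gars, chr6:55037881-55038020, plus strand: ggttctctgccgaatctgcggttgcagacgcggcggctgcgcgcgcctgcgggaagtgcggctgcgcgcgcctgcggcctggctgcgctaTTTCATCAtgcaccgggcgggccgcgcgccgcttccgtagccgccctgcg
Iars, chr13:49682010-49682149, plus strand: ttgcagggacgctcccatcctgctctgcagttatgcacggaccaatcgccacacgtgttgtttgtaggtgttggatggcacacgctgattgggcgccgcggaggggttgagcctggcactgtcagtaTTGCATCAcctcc
Tars, chr15:11399639-11399778, minus strand: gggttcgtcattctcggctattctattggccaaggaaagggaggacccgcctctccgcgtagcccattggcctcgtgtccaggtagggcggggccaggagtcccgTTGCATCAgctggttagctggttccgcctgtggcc
Yars, chr4:129189783-129189922, plus strand: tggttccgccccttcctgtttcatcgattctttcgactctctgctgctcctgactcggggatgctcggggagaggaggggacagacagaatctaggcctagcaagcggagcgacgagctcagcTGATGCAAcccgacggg
Aars2, chr17:45506712-45506851, plus strand: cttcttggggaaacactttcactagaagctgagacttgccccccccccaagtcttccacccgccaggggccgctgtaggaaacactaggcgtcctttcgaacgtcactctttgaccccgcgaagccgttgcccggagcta
Iars2, chr1:185329382-185329521, minus strand: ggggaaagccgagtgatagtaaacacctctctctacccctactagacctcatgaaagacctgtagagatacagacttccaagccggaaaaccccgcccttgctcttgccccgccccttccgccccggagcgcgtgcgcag
Tars2, chr3:95754958-95755097, minus strand: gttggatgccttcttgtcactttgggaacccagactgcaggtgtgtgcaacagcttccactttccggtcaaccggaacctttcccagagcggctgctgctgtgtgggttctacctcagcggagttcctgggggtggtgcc
Yars2, chr16:16302845-16302984, plus strand: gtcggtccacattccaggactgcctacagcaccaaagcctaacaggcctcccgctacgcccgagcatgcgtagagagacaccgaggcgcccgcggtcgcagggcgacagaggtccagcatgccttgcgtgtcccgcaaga

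In these windows, *Aars* held the motif at 2 places, from -112 to -105 and from 10 to 17 counted from the start as 1. It lay from -30 to -23 in *Gars*, from 8 to 15 in *Iars*, from -15 to -8 in *Tars* and from 4 to 11 in *Yars*. All 5 genes were called in some class. *Eprs*, *Sars* and *Mars1* were also called but did not have these letters in their windows, as was the case for *Dars*, *Farsa*, *Farsb*, *Kars* and *Qars*, which were not called in any class. *Cars*, *Hars*, *Lars*, *Nars*, *Rars*, *Vars*, *Wars*, *Hars2* and *Pars2* had no window to search. A match describes letters and does not show that a factor was bound.

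In Sst-like nuclei 10 cytosolic members rose, and the median log2 fold change of the 19 tested was 0.75, against 0.02 for the mitochondrial members and 0.01 for all 11842 genes tested. These sums came from 254 and 182 fl/fl-labelled nuclei and 170 and 159 SynCre-labelled nuclei. The leucyl enzyme gene *Lars* was at 127 and 141 CPM against 365 and 267 CPM (log2 fold change 1.24, SE 0.16, edgeR adjusted p = 2.88e-05). The asparaginyl enzyme gene *Nars* was at 115 and 118 CPM against 299.6 and 238 CPM (log2 fold change 1.21, SE 0.15, edgeR adjusted p = 1.71e-05). Both SynCre-labelled libraries lay above both fl/fl-labelled libraries for these genes, as for all 10 called here, beside 26.2% of all genes tested. Genes called higher from 2 libraries per label tend to separate in this way, so the separation adds no support to a call. *Eprs*, which encodes the joined glutamyl and prolyl enzyme, was at 93.4 and 99.1 CPM against 239.6 and 185 CPM (log2 fold change 1.15, SE 0.15, edgeR adjusted p = 3.9e-05). *Gars*, the glycyl enzyme gene, was at 73.8 and 60.7 CPM against 171 and 144 CPM (log2 fold change 1.22, SE 0.16, edgeR adjusted p = 3.84e-05). For *Sars*, the seryl enzyme gene, the values were 121 and 112 CPM against 251 and 206 CPM (log2 fold change 0.97, SE 0.14, edgeR adjusted p = 0.00015). Within the SynCre label, replicate 1 was the higher library for each of the 10 called genes. Some markers of other cell types also moved with the label in these sums. Summed over 6 endothelial markers the level was 17.1 and 18.03 CPM against 42.5 and 38.0 CPM, and over 5 choroid plexus markers 33.6 and 16.97 CPM against 68.1 and 48.4 CPM. The 6 oligodendrocyte markers were at 90.2 and 58.9 CPM against 48.5 and 40.5 CPM. The part of these markers in the result was not tested.

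The other members called in Sst-like nuclei were *Wars*, *Tars*, *Aars*, *Iars* and *Cars*. *Wars*, the tryptophanyl enzyme gene, was at 21.4 and 28.2 CPM against 68.5 and 49.6 CPM (log2 fold change 1.28, SE 0.21, edgeR adjusted p = 0.00059). *Tars*, the threonyl enzyme gene, was at 13.4 and 20.04 CPM against 45.3 and 28.1 CPM (log2 fold change 1.18, SE 0.27, edgeR adjusted p = 0.00767). DESeq2 called neither *Tars* nor *Cars*. The alanyl enzyme gene *Aars* went from 41.1 and 47.1 CPM to 86.9 and 84.3 CPM (log2 fold change 0.97, SE 0.17, edgeR adjusted p = 0.000746). *Iars* (isoleucyl) went from 82.1 and 78.5 CPM to 151 and 120.1 CPM (log2 fold change 0.75, SE 0.15, edgeR adjusted p = 0.00331). *Cars* (cysteinyl) went from 52.0 and 49.8 CPM to 95.5 and 72.3 CPM (log2 fold change 0.72, SE 0.17, edgeR adjusted p = 0.0112). Without fl/fl-labelled replicate 1, the library with Cre RNA, 5 of the 10 were called, which are *Eprs*, *Gars*, *Lars*, *Nars* and *Sars*. Without fl/fl-labelled replicate 2 or without SynCre-labelled replicate 1, 7 were called, and *Cars*, *Iars* and *Tars* were lost each time.

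The remaining cytosolic members did not pass in Sst-like nuclei. *Yars*, the tyrosyl enzyme gene, came nearest, at 62.2 and 78.0 CPM against 134 and 77.1 CPM (log2 fold change 0.61, SE 0.21, edgeR adjusted p = 0.0712), and only SynCre-labelled replicate 1 stood apart from the fl/fl-labelled libraries. Log2 fold changes were 0.54 for *Rars*, 0.35 for *Dars*, 0.29 for *Mars1*, 0.21 for *Farsb*, 0.13 for *Hars*, 0.12 for *Vars* and -0.09 for *Farsa*. *Qars* had a log2 fold change of 0.85 on 7 to 20 UMIs per library, an estimate with an SE of 0.41. *Kars* fell below the count filter at 8 to 14 UMIs per library.

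The mitochondrial counterparts of the 10 called genes were in the same nuclei and libraries. *Lars2* was at 77.4 and 73.1 CPM and 92.3 and 63.9 CPM (log2 fold change 0.06, SE 0.18, edgeR adjusted p = 0.898), with the SynCre-labelled libraries on either side of the fl/fl-labelled libraries. The 3′ end of *Lars2* resembles ribosomal RNA, and the part of such reads in its counts was not tested. *Gm42418*, a feature that collects ribosomal RNA reads, was at 1242 and 1641 CPM and 1366 and 1376 CPM in these sums, and AY036118, another such feature, at 211 and 242 CPM and 176 and 209 CPM. *Nars2* was at 46.9 and 44.4 CPM against 47.0 and 46.0 CPM (log2 fold change 0.02, SE 0.18, edgeR adjusted p = 0.96), and its 4 values overlapped. *Iars2* was at 48.7 and 53.6 CPM against 55.1 and 52.6 CPM (log2 fold change 0.08, SE 0.17, edgeR adjusted p = 0.848). The groups overlapped for *Iars2* and for *Tars2*, which had a log2 fold change of 0.02. *Sars2* was at 5.45 and 8.13 CPM against 5.94 and 5.98 CPM (log2 fold change -0.14, SE 0.44, edgeR adjusted p = 0.895).

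A few mitochondrial members had point estimates of the size seen on the cytosolic side. *Wars2* was at 9.81 and 9.75 CPM against 16.2 and 16.7 CPM (log2 fold change 0.75, SE 0.31, edgeR adjusted p = 0.158). *Cars2* was at 22.9 and 23.8 CPM against 44.3 and 29.9 CPM (log2 fold change 0.68, SE 0.23, edgeR adjusted p = 0.0754). *Ears2*, the glutamyl enzyme gene, was at 8.00 and 9.75 CPM against 14.6 and 10.2 CPM (log2 fold change 0.51, SE 0.35, edgeR adjusted p = 0.447). These missed the threshold with 17 to 82 UMIs per library, and the 2 groups did not overlap for any of them. Both SynCre-labelled libraries were on top for 3 of the 15 mitochondrial members tested, beside 26.2% of all genes, and both were below for 3. *Cars2* passed without SynCre-labelled replicate 2, at a log2 fold change of 0.92, and with a replicate block (edgeR adjusted p = 0.0497), and *Mars2* had a log2 fold change of 0.56. *Aars2* lay on the other side, at 14.5 and 15.2 CPM against 11.3 and 4.78 CPM (log2 fold change -0.85, SE 0.37, edgeR adjusted p = 0.182). *Pars2* had 1 to 12 UMIs per library and was not tested. Of 15 mitochondrial members tested in Sst-like nuclei, 3 had an unadjusted p below 0.05, beside 2573 of 11842 genes, and DESeq2 called 0.

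**Figure D2:**
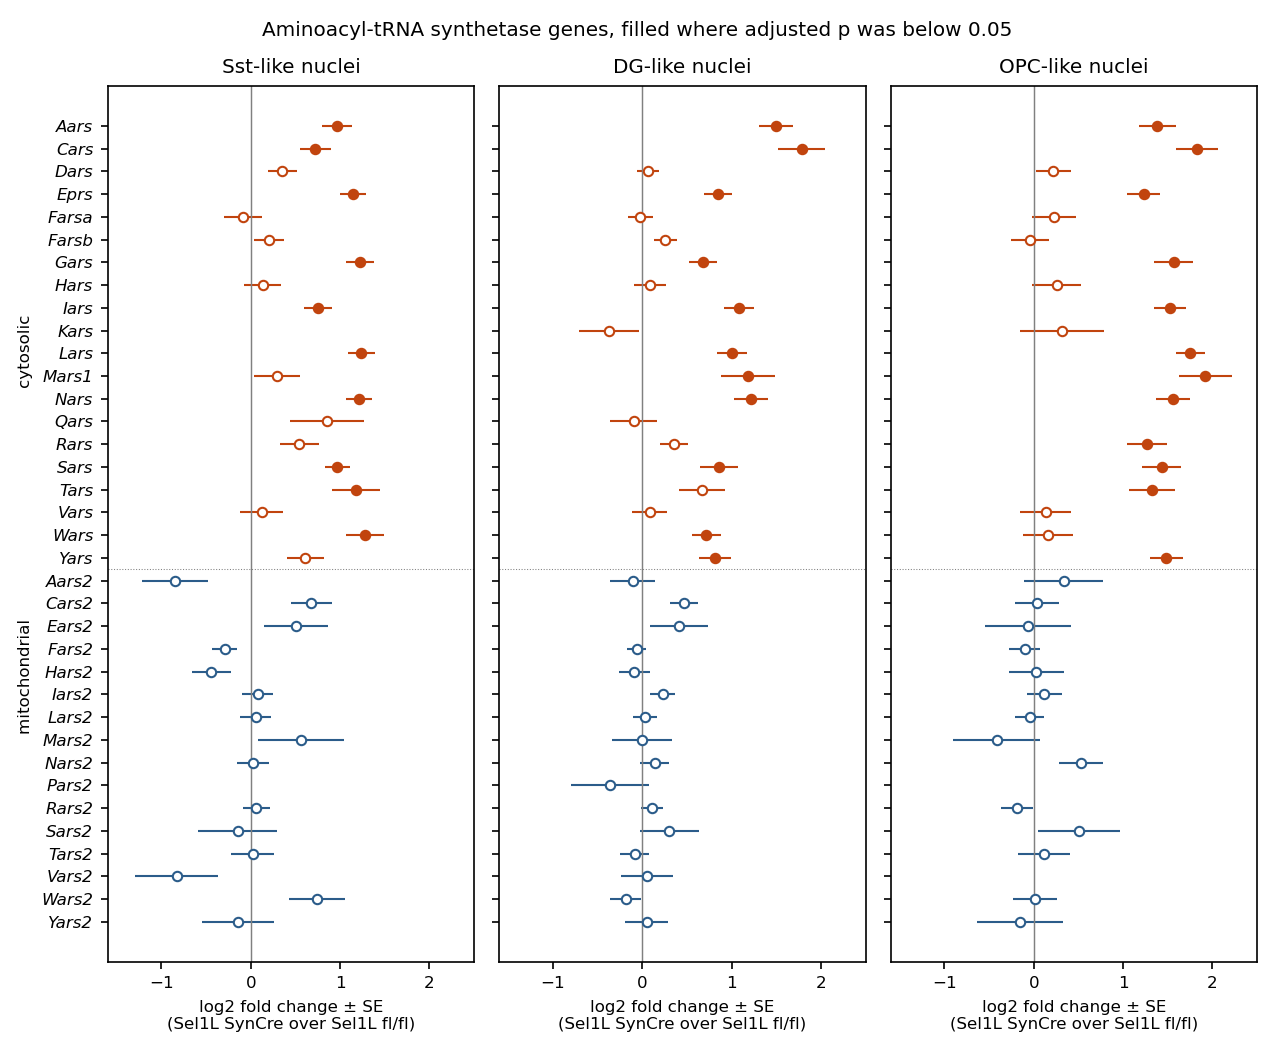
Log2 fold change with its SE of each tested member in Sst-like, DG-like and OPC-like nuclei, from 2 libraries per label. Filled points passed an edgeR adjusted p of 0.05. All filled points are cytosolic and lie to the right of 0, while the mitochondrial points spread around it.

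In DG-like nuclei 11 cytosolic members rose, and the 2 SynCre-labelled libraries were further apart. The medians were 0.70 for the cytosolic members, 0.04 for the mitochondrial members and 0.01 for all 13063 genes tested. *Cars* was at 18.3 and 12.9 CPM against 71.3 and 37.7 CPM (log2 fold change 1.78, SE 0.26, edgeR adjusted p = 0.00179). *Aars* was at 23.2 and 19.5 CPM against 72.6 and 48.8 CPM (log2 fold change 1.497, SE 0.19, edgeR adjusted p = 0.000647). Replicate 1 was the higher SynCre-labelled library for 10 of the 11 genes, and *Wars*, at 19.9 and 21.2 CPM against 33.4 and 34.0 CPM (log2 fold change 0.72, SE 0.16, edgeR adjusted p = 0.0283), was the exception. *Nars* was at 56.1 and 54.3 CPM against 162 and 94.7 CPM (log2 fold change 1.22, SE 0.19, edgeR adjusted p = 0.00309). *Iars* was at 48.5 and 44.6 CPM against 119.96 and 77.2 CPM (log2 fold change 1.08, SE 0.17, edgeR adjusted p = 0.00309). Both SynCre-labelled libraries still lay above both fl/fl-labelled libraries for all 11 genes, beside 23% of all genes tested. *Lars* was at 105 and 100.01 CPM against 254 and 157 CPM (log2 fold change 1.01, SE 0.17, edgeR adjusted p = 0.00497).

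The other members called in DG-like nuclei were *Eprs*, *Yars*, *Gars*, *Sars* and *Mars1*. *Eprs* went from 77.0 and 72.4 CPM to 159 and 111 CPM (log2 fold change 0.85, SE 0.15, edgeR adjusted p = 0.00721). *Yars* went from 52.6 and 44.8 CPM to 105 and 66.2 CPM (log2 fold change 0.81, SE 0.18, edgeR adjusted p = 0.0228). *Gars* went from 48.6 and 43.9 CPM to 87.1 and 61.0 CPM (log2 fold change 0.68, SE 0.16, edgeR adjusted p = 0.0303). SynCre-labelled replicate 2 lay close to the fl/fl-labelled values for *Sars*, at 39.6 and 42.3 CPM against 96.5 and 50.8 CPM (log2 fold change 0.86, SE 0.22, edgeR adjusted p = 0.045). The methionyl enzyme gene *Mars1* was at 8.77 and 10.8 CPM against 29.7 and 13.9 CPM (log2 fold change 1.19, SE 0.30, edgeR adjusted p = 0.0459). *Mars1* overlaps *Ddit3*, which encodes the stress factor CHOP, on the opposite strand, and *Ddit3* was at 5.06 and 4.37 CPM and 40.5 and 20.6 CPM. The strand setting of the counting is not given in the sources used here, and whether the counts keep the 2 genes apart was not tested.

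The number of calls in DG-like nuclei depended on the library and the tool. It was 7 without fl/fl-labelled replicate 1, 7 without SynCre-labelled replicate 1, and 5 with DESeq2, namely *Aars*, *Cars*, *Eprs*, *Iars* and *Yars*. In these sums 6 oligodendrocyte markers were at 357 and 324 CPM against 241 and 248 CPM and 6 OPC markers at 174 and 198 CPM against 110 and 136 CPM, and their part in the result was not tested. The median cytosolic log2 fold change was 0.78 without fl/fl-labelled replicate 1 and 0.38 without SynCre-labelled replicate 1. Members that did not pass included *Tars* at 0.67, *Rars* at 0.36 and *Farsb* at 0.26, and the others lay between -0.37 for *Kars* and 0.09 for *Hars*. Among counterparts, *Cars2* was at 26.3 and 30.8 CPM against 41.0 and 37.2 CPM (log2 fold change 0.46, SE 0.16, edgeR adjusted p = 0.142), *Aars2* at 10.9 and 9.20 CPM against 9.47 and 9.29 CPM, and *Nars2* at 25.4 and 24.8 CPM against 27.9 and 27.6 CPM. *Lars2* was at 84.2 and 91.7 CPM against 79.4 and 100.5 CPM and *Iars2* at 52.6 and 58.4 CPM against 57.6 and 72.3 CPM. *Mars2*, *Yars2* and *Wars2* had log2 fold changes of 0.00, 0.05 and -0.18. *Ears2*, *Pars2* and *Sars2* had values of 0.41, -0.36 and 0.31. Of 16 mitochondrial members, 1 had an unadjusted p below 0.05, beside 2159 of 13063 genes, and DESeq2 called 0.

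**Figure D3:**
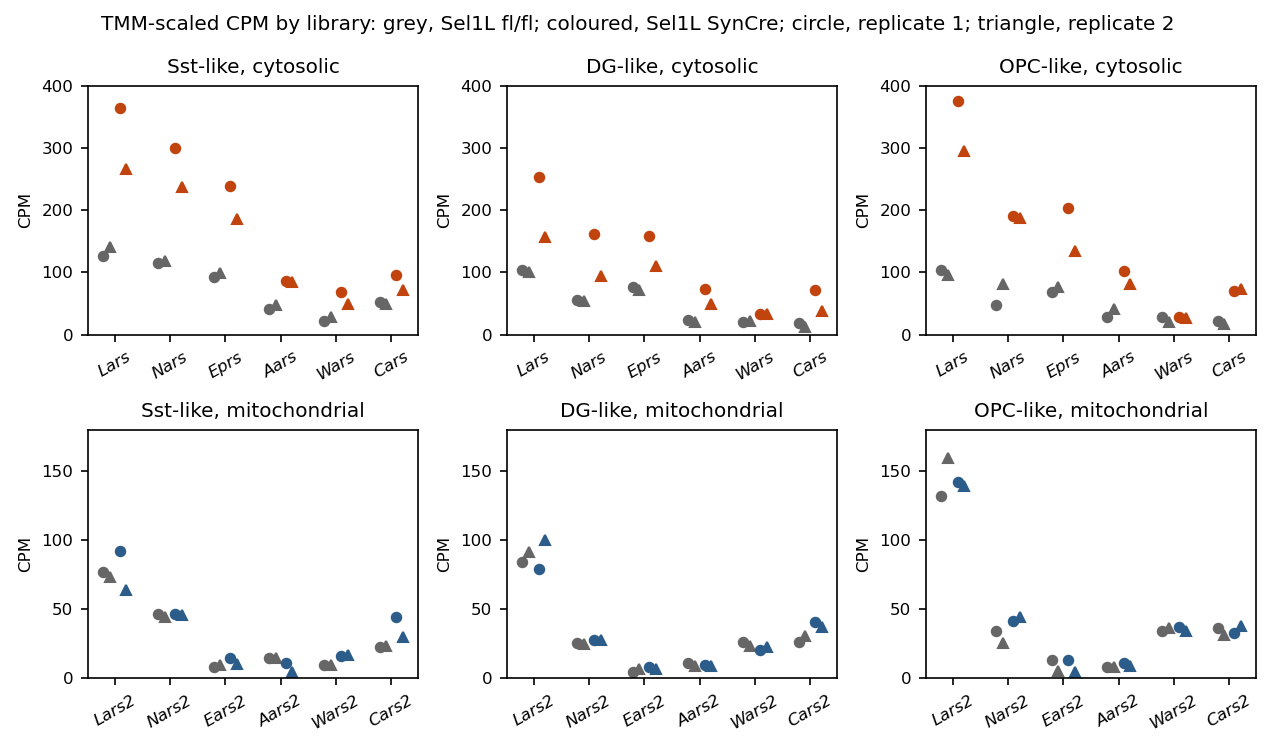
TMM-scaled CPM in each library for 6 cytosolic members (top) and their mitochondrial counterparts (bottom) in 3 classes. Grey is fl/fl-labelled, colour is SynCre-labelled, circles are replicate 1 and triangles replicate 2. *Lars* in Sst-like nuclei reached 365 and 267 CPM from 127 and 141 CPM, while *Lars2* lay between 63.9 and 92.3 CPM.

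The highest cytosolic median of the 16 classes was in OPC-like nuclei, which are glial. Here 12 of 19 cytosolic members tested were called, and their median was 1.33, against 0.02 for 14 mitochondrial members and 0.01 for all 11545 genes tested. *Lars* was at 104 and 95.6 CPM against 377 and 296 CPM (log2 fold change 1.75, SE 0.16, edgeR adjusted p = 1.82e-10). *Iars* was at 52.9 and 54.7 CPM against 169 and 141 CPM (log2 fold change 1.53, SE 0.18, edgeR adjusted p = 5.24e-08). *Yars* was at 59.2 and 61.0 CPM against 195 and 141 CPM (log2 fold change 1.48, SE 0.18, edgeR adjusted p = 1.69e-07). For each of the 12 genes both SynCre-labelled libraries lay above both fl/fl-labelled libraries, beside 23.1% of all genes tested. *Cars* was at 21.98 and 17.8 CPM against 70.2 and 73.1 CPM (log2 fold change 1.83, SE 0.24, edgeR adjusted p = 3.35e-07). *Nars* was at 48.0 and 81.2 CPM against 190.1 and 187 CPM (log2 fold change 1.56, SE 0.19, edgeR adjusted p = 1.49e-07). *Mars1* was at 14.8 and 12.7 CPM against 71.1 and 33.1 CPM (log2 fold change 1.92, SE 0.30, edgeR adjusted p = 1.21e-05), with *Ddit3* on the opposite strand at 6.73 and 5.76 CPM and 64.8 and 25.3 CPM.

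Further rises in OPC-like nuclei covered the enzymes of several amino acid classes. *Gars* went from 32.3 and 31.1 CPM to 116 and 71.1 CPM (log2 fold change 1.57, SE 0.22, edgeR adjusted p = 1.3e-06). *Sars* went from 44.4 and 39.1 CPM to 152 and 73.1 CPM (log2 fold change 1.43, SE 0.22, edgeR adjusted p = 1.22e-05). *Aars* and *Eprs* rose by 1.38 and 1.23 on the log2 scale, and *Tars* by 1.33. *Rars*, the arginyl enzyme gene, was with all libraries called in this class and in no other, at 45.3 and 40.9 CPM against 139 and 67.2 CPM (log2 fold change 1.27, SE 0.22, edgeR adjusted p = 8.64e-05). The difference of its effect from that in Sst-like nuclei was 0.77 (SE 0.27, edgeR adjusted p = 0.0839). From that in astrocyte-like nuclei it was 1.20 (SE 0.34, edgeR adjusted p = 0.033). *Wars*, which rose in Sst-like, DG-like and Pvalb-like nuclei, was at 27.8 and 20.7 CPM and 28.4 and 26.3 CPM (log2 fold change 0.16, SE 0.28, edgeR adjusted p = 0.859), and its 4 values overlapped.

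The oligodendrocyte markers in the OPC-like class differed with the label. Summed over 6 oligodendrocyte markers, its level was 3265 and 2745 CPM in the fl/fl-labelled libraries and 111 and 155 CPM in the SynCre-labelled libraries. Astrocyte markers were also apart, at 384 and 451 CPM against 528 and 671 CPM, while neuron markers were at 504 and 498 CPM against 491 and 574 CPM. The count was repeated on OPC-like nuclei with at most 1 oligodendrocyte-marker UMI, a step added after the data were seen, which left 319 and 304 fl/fl-labelled nuclei and 263 and 226 SynCre-labelled nuclei. The oligodendrocyte marker sum was then 102 and 82.2 CPM against 55.7 and 48.1 CPM, and the astrocyte marker sum 503 and 586 CPM against 535 and 693 CPM. All 12 genes were again called, with a cytosolic median of 1.37 and a mitochondrial median of -0.09. The same 12 were called without fl/fl-labelled replicate 1, and 10 of them without SynCre-labelled replicate 1, where *Rars* and *Sars* were lost.

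Oligodendrocyte-like nuclei showed a smaller set. This class held 1849 and 1174 fl/fl-labelled nuclei but 357 and 365 SynCre-labelled nuclei. The part of a change in which nuclei it holds was not tested. *Cars* was at 16.6 and 12.6 CPM against 49.4 and 41.4 CPM (log2 fold change 1.61, SE 0.24, edgeR adjusted p = 0.0136). *Yars* was at 43.2 and 43.5 CPM against 94.2 and 78.1 CPM (log2 fold change 0.99, SE 0.17, edgeR adjusted p = 0.0242). *Sars* was at 59.9 and 59.6 CPM against 115 and 113 CPM (log2 fold change 0.93, SE 0.16, edgeR adjusted p = 0.023) and *Nars* at 59.4 and 69.3 CPM against 115 and 126 CPM (log2 fold change 0.91, SE 0.17, edgeR adjusted p = 0.035). The SynCre-labelled libraries lay above the fl/fl-labelled libraries for all 4, beside 21% of all genes tested. No Cre UMI was found among the 1108213 and 1029623 UMIs of these nuclei in the SynCre-labelled libraries, a depth at which a low level can be missed. *Cars2* and *Yars2* had log2 fold changes of 0.06 and -0.02. Without fl/fl-labelled replicate 1, *Cars* alone was called, and without fl/fl-labelled replicate 2, 0 members were.

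In Pvalb-like nuclei, those with markers of parvalbumin interneurons, 3 cytosolic members passed, and the medians were 0.38 and -0.09. *Wars* was at 26.0 and 32.8 CPM against 105 and 59.3 CPM (log2 fold change 1.49, SE 0.25, edgeR adjusted p = 0.00435). *Lars* was at 129.8 and 171 CPM against 347 and 201 CPM (log2 fold change 0.87, SE 0.22, edgeR adjusted p = 0.0447). *Nars* was at 145 and 166 CPM against 309 and 199.7 CPM (log2 fold change 0.71, SE 0.18, edgeR adjusted p = 0.04996). For all 3 genes both SynCre-labelled libraries lay above both fl/fl-labelled libraries, with replicate 1 the higher, beside 24.1% of all genes tested. *Lars* and *Nars* were at the edge of the threshold. *Wars* alone was called without fl/fl-labelled replicate 1, without SynCre-labelled replicate 1 and with a replicate block, and 7 members were called without SynCre-labelled replicate 2. *Wars2* was at 14.7 and 18.9 CPM against 17.7 and 13.6 CPM, *Lars2* at 75.2 and 76.5 CPM against 77.1 and 80.6 CPM and *Nars2* at 52.8 and 62.7 CPM against 46.8 and 42.5 CPM.

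In L4/5 IT-like nuclei *Sars* was at 62.4 and 60.1 CPM against 97.6 and 87.7 CPM (log2 fold change 0.60, SE 0.13, edgeR adjusted p = 0.0388). The number called in these nuclei ranged from 0 without SynCre-labelled replicate 1 to 3 when either fl/fl-labelled library was left out. *Sars2* was not called there.

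Across all neuron-like nuclei 0 of 20 cytosolic members passed with edgeR, beside 0.174% of 20085 genes called higher. An unadjusted p below 0.05 was found for 10 of them, beside 2566 of 20085 genes. DESeq2 called *Nars* alone, and so did edgeR with a replicate block. *Nars* was at 71.2 and 76.5 CPM against 104 and 93.0 CPM (log2 fold change 0.42, SE 0.10, edgeR adjusted p = 0.16), *Lars* at 98.7 and 107 CPM against 148 and 121 CPM (log2 fold change 0.39, SE 0.12, edgeR adjusted p = 0.251) and *Wars* at 21.3 and 20.6 CPM against 29.8 and 25.2 CPM (log2 fold change 0.39, SE 0.11, edgeR adjusted p = 0.207). Both SynCre-labelled libraries were above both fl/fl-labelled libraries for 11 of the 20 cytosolic members and for 1 of the 16 mitochondrial members, beside 22.7% of all genes. Both were below for 1 of the 20 cytosolic and 8 of the 16 mitochondrial members, beside 21.9% of all genes. The medians were 0.26 and -0.09, and 1 of the 16 mitochondrial members had a log2 fold change above 0, beside 49.9% of all genes.

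CA1-like nuclei are those with markers of hippocampal pyramidal neurons. No cytosolic member passed in Vip-like or in CA1-like nuclei, where 0.00897% and 0.00757% of genes were called higher with edgeR. There 2 and 1 members had an unadjusted p below 0.05, beside 760 of 11148 and 1101 of 13218 genes. The medians were -0.10 and -0.06 for the cytosolic members. In Vip-like nuclei *Lars* was at 149.9 and 138 CPM against 157 and 128 CPM and *Nars* at 106 and 106 CPM against 108 and 101 CPM. In CA1-like nuclei they were at 94.4 and 99.6 CPM against 103 and 85.9 CPM and 61.7 and 77.4 CPM against 69.7 and 76.5 CPM. The values of the 2 labels overlapped for both genes in both classes. The count with both SynCre-labelled libraries on top was 0 of 18 members in Vip-like nuclei, beside 18.6% of genes, and 6 of 20 in CA1-like nuclei, beside 19.8%. The count with both below was 5 of 18 in Vip-like nuclei, beside 18.3%, and 4 of 20 in CA1-like nuclei, beside 19.3%. The lowest log2 fold changes were -0.84 for *Mars1* in Vip-like nuclei and -0.47 for *Vars* in CA1-like nuclei.

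In the remaining classes no member was called. The shares of genes called higher there were 0.145% in L2/3 IT-like, 0.325% in L5/6 IT-like, 0.254% in L6 CT-like, 0.0328% in CA3-like, 0.363% in Lamp5-like, 0.772% in astrocyte-like and 0% in endothelial-like nuclei and 0.0561% in the *Ikzf1* cluster. At an unadjusted p below 0.05, cytosolic members numbered 8 of 19 in Lamp5-like nuclei, beside 1190 of 10475 genes. They numbered 5 of 20 in L6 CT-like (1537 of 14196 genes), 3 of 20 in CA3-like (977 of 12190) and 3 of 20 in astrocyte-like nuclei (1521 of 11792). In endothelial-like nuclei there were 2 of 16 (448 of 8625 genes) and in L5/6 IT-like nuclei 1 of 20 (1264 of 12633). The other classes of this group had 0, beside 1911 of 15203 genes in L2/3 IT-like nuclei and 891 of 10698 in the *Ikzf1* cluster. The cytosolic median was 0.38 in Lamp5-like and 0.27 in CA3-like nuclei, and in Lamp5-like nuclei *Lars*, *Eprs* and *Gars* were called without fl/fl-labelled replicate 1. *Lars2* was called in astrocyte-like nuclei without SynCre-labelled replicate 1.

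Whether a genotype effect differed between classes was tested by an interaction term over the summed counts. Sst-like and Vip-like nuclei differed in 9 of 20 cytosolic members, all with the larger effect in Sst-like nuclei, beside 2.88% of 12429 genes. The members were *Aars*, *Eprs*, *Gars*, *Iars*, *Lars*, *Nars*, *Sars*, *Wars* and *Yars*, and the difference was largest for *Wars*, at 1.56 (SE 0.32, edgeR adjusted p = 0.00778). Without fl/fl-labelled replicate 1, these members were no longer called, in a fit with 1 fl/fl-labelled library where few genes of any kind were. The median difference of the cytosolic members was then 0.85, against 0.89 with all libraries. DG-like and CA1-like nuclei differed in 9 of 20, all larger in DG-like nuclei, beside 2.36% of genes, with *Cars* at 2.09 (SE 0.27, edgeR adjusted p = 2.62e-05). The cytosolic median difference was 0.56, and 0.67 without fl/fl-labelled replicate 1, where fewer members were called. Pvalb-like and Vip-like nuclei differed in 3 of 20, beside 1.41%, which are *Lars*, *Sars* and *Wars*. The cytosolic median difference was 0.55, and 0.41 without that library, where fewer members were called. Mitochondrial members that differed with edgeR numbered 0 in these comparisons, with 1, 2 and 0 at an unadjusted p below 0.05 in the order given. Of all genes, 1750 of 12429, 1743 of 14131 and 1415 of 13109 had such a p.

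OPC-like nuclei were set against 2 other classes after their calls had been seen. Against astrocyte-like nuclei, 10 of 20 cytosolic members had a larger effect in OPC-like nuclei, beside 4.57% of genes. The cytosolic median difference was 1.18, and 0.84 without fl/fl-labelled replicate 1, where fewer members were called. Against Sst-like nuclei, 5 members had a larger effect in OPC-like nuclei and 1 a smaller effect, beside 6.09% of genes. *Mars1* (1.68), *Cars* (1.18), *Yars* (0.95), *Iars* (0.85) and *Lars* (0.58) were larger in OPC-like nuclei, and *Wars* was smaller, at -1.06 (SE 0.32, edgeR adjusted p = 0.0351). The cytosolic median difference was 0.43, and 0.42 without fl/fl-labelled replicate 1, where fewer members were called larger. All neuron-like and oligodendrocyte-like nuclei differed in *Cars* and *Yars*, beside 2.1% of genes, with the larger effect in oligodendrocyte-like nuclei. The cytosolic median difference was -0.16, beside 0.21 for all genes tested. Without fl/fl-labelled replicate 1, where fewer members were called, these medians were -0.17 and 0.13. Mitochondrial members that differed with edgeR numbered 0 here too, with 1, 2 and 1 at an unadjusted p below 0.05. Of all genes, 1977 of 12891, 2230 of 13221 and 2184 of 19442 had such a p.

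By gene, the number of classes in which a cytosolic member was called ran from 0 to 5. *Nars* and *Sars* were called in 5 of 16 classes, and *Cars* and *Lars* in 4. *Aars*, *Eprs*, *Gars*, *Iars*, *Wars* and *Yars* were called in 3, *Mars1* and *Tars* in 2 and *Rars* in 1. Sst-like and DG-like nuclei shared 9 called genes, of 10 and 11, and 8 of these were also called in OPC-like nuclei. *Dars*, *Farsa*, *Farsb*, *Hars*, *Kars*, *Qars* and *Vars* were called in no class. The log2 fold change of *Dars* lay between -0.12 and 0.35 over the 16 classes, and that of *Farsb* between -0.47 and 0.26, while that of *Lars* ran from -0.17 to 1.75.

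Several cytosolic synthetases sit together in the multi-synthetase complex, which holds the enzymes of *Dars*, *Eprs*, *Iars*, *Kars*, *Lars*, *Mars1*, *Qars* and *Rars*. Calls were found among its members and outside it. In Sst-like nuclei 3 of 7 complex members tested and 7 of 12 others were called, in DG-like nuclei 4 of 8 and 7 of 12, and in OPC-like nuclei 5 of 7 and 7 of 12. Leaving out fl/fl-labelled replicate 1 made these 2 of 8 and 3 of 12, 3 of 8 and 4 of 12, and 5 of 8 and 7 of 12. *Dars* and *Kars*, which belong to the complex, were not called, nor were the subunit genes *Farsa* and *Farsb*, which do not.

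Set pair by pair for the same amino acid, the cytosolic gene had the higher log2 fold change in 15 of 16 pairs in Sst-like nuclei, 17 of 17 in DG-like nuclei and 15 of 15 in OPC-like nuclei. In Sst-like nuclei *Mars1* against *Mars2* was the exception (0.29 and 0.56). The median difference was 0.66, 0.76 and 1.21. Leaving out fl/fl-labelled replicate 1, the cytosolic gene was higher in 14 of 17, 16 of 17 and 14 of 15 pairs, with median differences of 0.75, 0.88 and 0.79. With all libraries, the median difference was 0.09 over 15 pairs in Vip-like nuclei and 0.11 over 17 pairs in CA1-like nuclei. The cytosolic gene was higher there in 10 and 11 pairs. Without fl/fl-labelled replicate 1, it was higher in 10 of 16 pairs in Vip-like and 8 of 17 in CA1-like nuclei. The median differences were then 0.27 and -0.005. These pairs share libraries and some share a gene, so they are given as a description.

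Summed over the members of a group and scaled by the UMIs of the class alone, the cytosolic level in Sst-like nuclei was 1024 and 1097 CPM in the fl/fl-labelled libraries and 2280.1 and 1839.7 CPM in the SynCre-labelled libraries. The mitochondrial sum was 530.4 and 555 CPM and 591 and 531 CPM. The cytosolic sum over the mitochondrial sum went from 1.95 ± 0.0327 to 3.66 ± 0.279 (SD, n = 2 libraries per label). In OPC-like nuclei this ratio went from 1.24 ± 0.0531 to 2.94 ± 0.700, and in DG-like nuclei from 1.24 ± 0.0556 to 2.05 ± 0.623. In CA1-like nuclei it was 1.30 ± 0.0231 and 1.34 ± 0.00153. The sums count UMIs and are not per length, so the ratio compares libraries and not the abundance of the 2 kinds of enzyme. Leaving out *Lars*, the cytosolic member with most UMIs there, changed the ratio of SynCre-labelled to fl/fl-labelled cytosolic sums in Sst-like nuclei from 1.94 to 1.87, and leaving out *Fars2*, the mitochondrial member with most UMIs there, changed the mitochondrial one from 1.03 to 1.09. Leaving out *Lars2* instead gave 1.02.

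**Figure D4:**
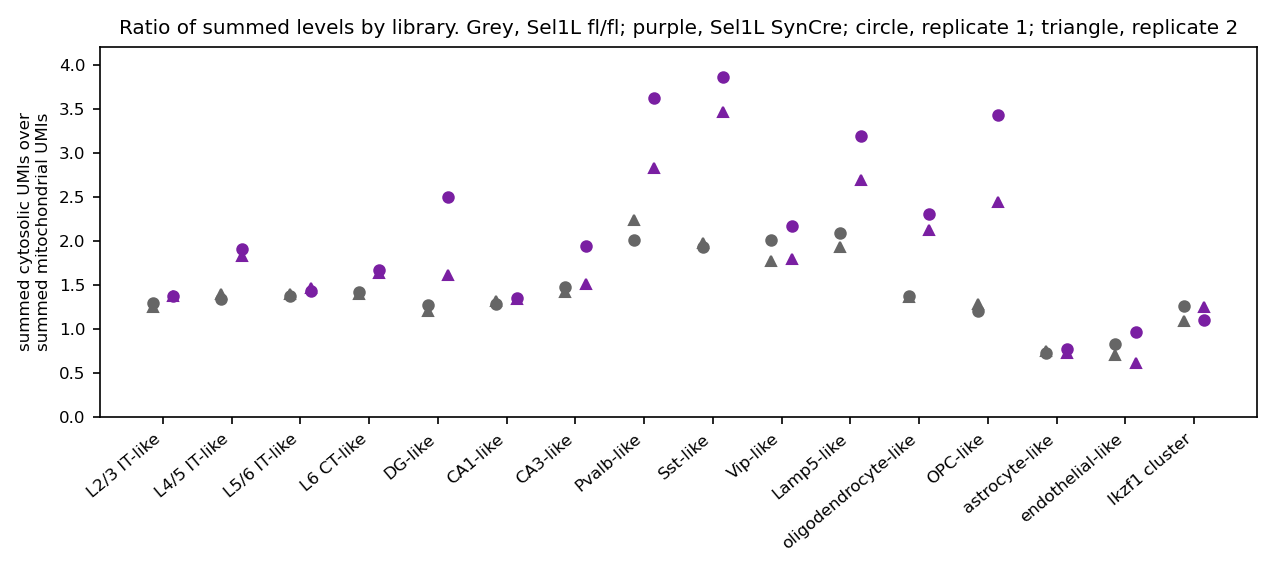
Summed cytosolic UMIs over summed mitochondrial UMIs in each library and class. Grey is fl/fl-labelled, purple is SynCre-labelled, circles are replicate 1 and triangles replicate 2. In Sst-like nuclei the SynCre-labelled libraries were at 3.86 and 3.47 and the fl/fl-labelled libraries at 1.93 and 1.98, while in CA1-like nuclei all 4 lay between 1.28 and 1.34.

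The Cre RNA itself was uneven across classes. In the SynCre-labelled libraries it was at 29.1 and 25.7 CPM in Pvalb-like, 17.4 and 15.3 CPM in Sst-like, 17.4 and 11.7 CPM in OPC-like and 5.58 and 7.11 CPM in DG-like nuclei. It was at 0.257 and 0.246 CPM in CA1-like nuclei, on 1 UMI in each library, and at 1.21 and 2.65 CPM in Vip-like nuclei. Across the 16 classes its mean level and the median cytosolic log2 fold change had a Pearson r of 0.59 and a Spearman rho of 0.63, against 0.16 and 0.18 for the mitochondrial median. These points share libraries and depth, and the values are a description. Oligodendrocyte-like nuclei, with no Cre UMI and a median of 0.55, and Pvalb-like nuclei, with most Cre and a median of 0.38, show that the order of the 2 measures was not the same.

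Fl/fl-labelled replicate 1 carried Cre RNA at similar levels, 30.03 CPM in Pvalb-like, 20.2 CPM in Sst-like and 13.9 CPM in OPC-like nuclei. The median log2 ratio of replicate 1 to replicate 2 over the cytosolic members, with 1 CPM added, was -0.08 in Sst-like, -0.13 in Pvalb-like, 0.10 in DG-like, 0.05 in OPC-like, 0.13 in Vip-like and 0.13 in Lamp5-like nuclei. Replicate 2 had 0 Cre UMIs.

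**Figure D5:**
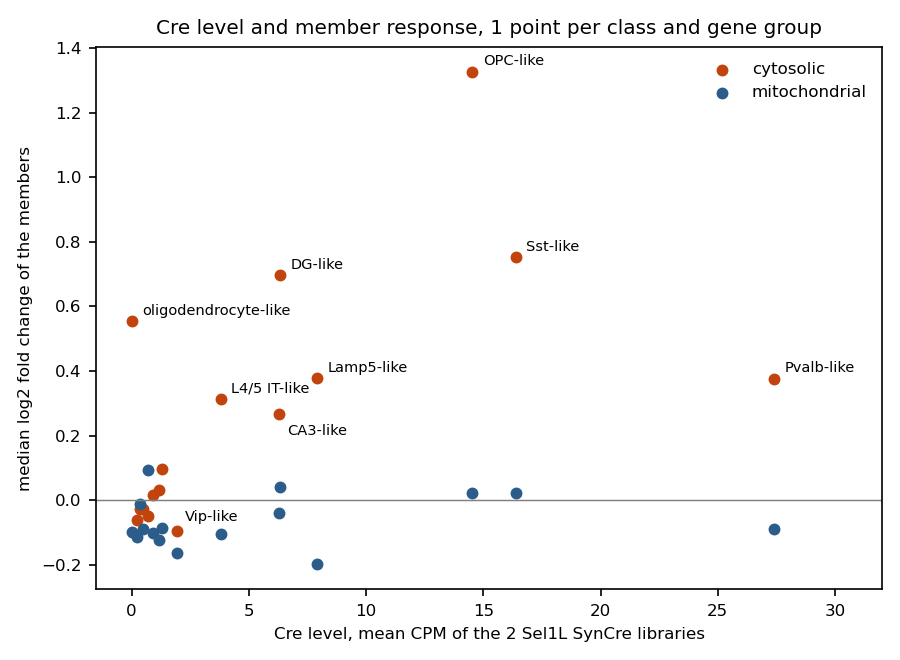
Median log2 fold change of the cytosolic and mitochondrial members against the mean Cre CPM of the 2 SynCre-labelled libraries, 1 point per class and group. OPC-like nuclei had a cytosolic median of 1.33 at 14.5 CPM of Cre, and the mitochondrial medians lay between -0.20 and 0.09 along the whole axis.

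Genes that work beside the synthetases were listed separately. Of 13 cytosolic accessory genes tested in Sst-like nuclei, 2 were called higher, beside 4.82% of all genes, and in OPC-like nuclei 2 of 13, beside 3.47%. *Xpot*, the exportin of tRNA, was at 47.3 and 46.0 CPM against 102 and 87.8 CPM (log2 fold change 1.02, SE 0.16, edgeR adjusted p = 0.000353), and *Aimp1*, a scaffold of the multi-synthetase complex, at 36.0 and 35.8 CPM against 55.6 and 53.2 CPM (log2 fold change 0.60, SE 0.18, edgeR adjusted p = 0.043). In OPC-like nuclei *Xpot* was at 41.7 and 42.0 CPM against 141 and 91.6 CPM (log2 fold change 1.48, SE 0.20, edgeR adjusted p = 6.55e-07), and *Prorsd1*, which encodes a protein with a prolyl-tRNA editing domain, rose by 1.19 on the log2 scale. The list median was 0.17 in Sst-like, 0.20 in DG-like and 0.19 in OPC-like nuclei. With edgeR 0 were called in DG-like nuclei, where 1 had an unadjusted p below 0.05, beside 2159 of 13063 genes. With the library left out that held Cre RNA against its label, 0 of 13 were called in Sst-like nuclei, where 2 had an unadjusted p below 0.05, and *Xpot* alone was called in OPC-like nuclei.

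Of 12 mitochondrial accessory genes tested in Sst-like nuclei, 0 were called with edgeR. Beside 2573 of 11842 genes, 1 had an unadjusted p below 0.05. This was *Mtrf1*, which encodes a mitochondrial release factor, at 8.72 and 20.6 CPM against 4.86 and 5.38 CPM (log2 fold change -1.43, SE 0.46, edgeR adjusted p = 0.056). The elongation and initiation factor genes *Tsfm*, *Gfm1*, *Gfm2*, *Mtif2* and *Mtif3* had log2 fold changes from -0.14 to 0.16. In DG-like and OPC-like nuclei 0 were called with edgeR, and 2 and 1 had an unadjusted p below 0.05, beside 2159 of 13063 and 2068 of 11545 genes.

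Other genes known as ATF4 targets were given the same tests. Of a list of 23 enzymes, transporters and regulators, 22 of 23 tested were called higher in Sst-like nuclei, beside 4.82% of all genes. The counts were 16 of 18 in OPC-like (beside 3.47%), 12 of 22 in Pvalb-like (2.27%) and 11 of 22 in L4/5 IT-like nuclei (1.25%). They were 10 of 18 in DG-like (1.91%), 5 of 13 in oligodendrocyte-like (0.802%), 1 of 19 in Lamp5-like (0.363%) and 1 of 23 in all neuron-like nuclei (0.174%). In CA1-like and Vip-like nuclei 14 and 12 were tested and 0 were called. The count filter can admit a gene through the label in which it is higher. The number tested and the share called are therefore not independent of the change. With all libraries, the list medians in Sst-like, DG-like and OPC-like nuclei were 1.92, 1.36 and 2.03. Without fl/fl-labelled replicate 1, they were 1.84, 1.52 and 2.34. In that setting the list median was 1.07 in Pvalb-like, 1.21 in L4/5 IT-like, 0.38 in oligodendrocyte-like and 1.10 in Lamp5-like nuclei. It was 0.80 in all neuron-like, 0.23 in L2/3 IT-like, -0.34 in CA1-like and -0.31 in Vip-like nuclei. The list was compiled with results of these data known, so its direction is not independent evidence. In Sst-like nuclei the cystine transporter gene *Slc7a11* was at 3.998 and 6.50 CPM against 175 and 111 CPM (log2 fold change 4.82, SE 0.28, edgeR adjusted p = 2.96e-09), and *Phgdh*, the first enzyme of serine synthesis, at 3.998 and 2.71 CPM against 31.8 and 19.7 CPM (log2 fold change 2.88, SE 0.38, edgeR adjusted p = 4.92e-05). *Trib3* (log2 fold change 4.02) and *Cth* (3.30) completed the 4 largest, each on 2 and 4 UMIs in the fl/fl-labelled libraries. *Asns*, asparagine synthetase, was at 31.6 and 37.4 CPM against 75.6 and 69.3 CPM (log2 fold change 1.08, SE 0.18, edgeR adjusted p = 0.000497).

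*Atf4* RNA itself was called in Sst-like nuclei alone among the 16 classes, at 17.4 and 17.9 CPM against 38.9 and 34.1 CPM (log2 fold change 1.05, SE 0.23, edgeR adjusted p = 0.00479). It was not called there without fl/fl-labelled replicate 1 (log2 fold change 1.03, edgeR adjusted p = 0.122). It was at 30.1 and 33.4 CPM and 31.1 and 35.1 CPM in OPC-like nuclei (log2 fold change 0.06, SE 0.25, edgeR adjusted p = 0.941). Since ATF4 is raised through its translation, *Atf4* RNA does not measure ATF4 activity, which was not tested. *Ddit3* was at 8.00 and 8.67 CPM against 88.0 and 68.7 CPM (log2 fold change 3.24, SE 0.23, edgeR adjusted p = 3.19e-08) in Sst-like nuclei. *Sel1l* was at 105 and 98.6 CPM and 459 and 313 CPM there, at 83.9 and 73.3 CPM and 233 and 188 CPM in DG-like nuclei and at 127 and 93.8 CPM and 432 and 186 CPM in OPC-like nuclei, and it was at 102 and 91.2 CPM and 105 and 76.6 CPM in Vip-like nuclei.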

How the data were processed

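Nuclei were sorted from cortex and hippocampus and sequenced with the 10x 3′ kit in 4 libraries. Per the labels, the authors aligned and counted reads with Cell Ranger 6.1.0 on GRCm38, and the deposited matrices hold UMI counts per gene and nucleus. The strand setting is not given in the sources used here. Nuclei needed more than 600 genes and under 5% mitochondrial UMIs, and those with top Scrublet doublet scores were removed at a share that grew with library size. Classes were rebuilt with Seurat 5.3.0 (2000 variable features, 17 dimensions, resolution 0.2 and, for neurons, 0.4) and named from marker lists. Rebuilt names can differ from those of the study.

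Counts were summed per library and class, and edgeR 4.0.16 (R 4.3.3) was run with TMM scaling, its quasi-likelihood test and a prior count of 0.125, after its filter on low counts. The Benjamini-Hochberg adjustment ran over all genes tested, with a threshold of 0.05. DESeq2 1.42.0, other size factors, no count filter, thinning, doublets kept, classes named without integration (scanpy 1.11.5), a replicate block and each library left out were tried as alternatives. On data simulated for Sst-like nuclei, edgeR recovered 72% of genes changed 2-fold and 99% of those changed 4-fold, with 12 false calls among 11508 genes. At 2-fold, DESeq2 recovered 39%. An edgeR test of a difference between classes recovered 40% on independent draws simulated from Sst-like nuclei. It had no block for library, unlike the tests between classes reported above, so 40% is not their rate. The changed genes were drawn from those above a minimum mean count, so these rates do not describe members with few UMIs.

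The members, companion lists and tests were chosen with earlier results of these data known. Full values were given for members called in all neuron-like, Sst-like, Pvalb-like or DG-like nuclei and for their counterparts. OPC-like values were added after their calls had been seen. Of companion genes, the 4 with the highest fold changes of a list in Sst-like nuclei were named among those called, and *Asns*, *Mtrf1* and *Prorsd1* were named after their values had been seen. Overlapping genes on the opposite strand were found for 5 cytosolic and 7 mitochondrial members. Overlap on the same strand was found for 1 cytosolic member, *Aars* with *Exosc6*, and for 2 mitochondrial members, *Fars2* and *Wars2*. The part of these overlaps in the counts was not tested.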

Additional observations from a re-analysis of the deposited data

Results flagged for a closer look

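The effect of the label differed between classes for several cytosolic members by the test of the difference itself, with all libraries in the fit. Between Sst-like and Vip-like nuclei 9 members differed, with the largest difference of log2 fold change for *Wars* (1.56). Between Pvalb-like and Vip-like nuclei 3 differed, again with *Wars* the largest (1.85). Between DG-like and CA1-like nuclei 9 differed, with *Cars* the largest (2.09). Between all neuron-like and oligodendrocyte-like nuclei 2 differed, and *Cars* had a difference of -1.14, the larger effect being in oligodendrocyte-like nuclei.

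OPC-like nuclei differed from Sst-like nuclei in 6 members, with *Mars1* the largest (1.68), and from astrocyte-like nuclei in 10, with *Mars1* again the largest (2.34). These *Mars1* values share the limit that *Ddit3* lies on its opposite strand.

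The library labelled Sel1L fl/fl replicate 1 held 408 Cre UMIs, which its label does not provide for, and replicate 2 of the same label held 0.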

How the results depend on the processing

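With 2 libraries per label, the number of cytosolic members called depended on the setting. DESeq2 called 5 in DG-like, 2 in Pvalb-like and 1 in all neuron-like nuclei. Pvalb-like nuclei had 1 with RLE size factors, 1 with doublets kept, 5 with names made without integration and 1 to 7 with a library left out, and DG-like nuclei had 6 after thinning and 7 to 12 with a library left out. Leaving out a library gave 5 to 12 in Sst-like, 10 to 12 in OPC-like and 0 to 0 in all neuron-like nuclei, 3 to 7 in the other classes together, and 0 to 1 mitochondrial member in Sst-like nuclei (*Cars2*, without SynCre-labelled replicate 2). Without fl/fl-labelled replicate 1, a step added after the data were seen, fewer members differed in each comparison of classes. For Sst-like against Vip-like nuclei the differing members were no longer called, and few genes of any kind were. The cause of these changes was not tested. An earlier clustering run under other settings of the linear algebra library placed some nuclei in other classes, few of them Sst-like. It gave fewer calls in Pvalb-like nuclei, called *Mtrf1* in Sst-like nuclei and, without fl/fl-labelled replicate 1, more calls in Sst-like nuclei and in the Sst-like against Vip-like test, so these counts depend on the exact class membership.

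With a replicate block, the calls numbered 11 in Sst-like (*Yars* was added), 12 in DG-like (*Tars* was added), 12 in OPC-like, 1 in Pvalb-like (*Wars*) and 1 in all neuron-like nuclei (*Nars*), and 1 mitochondrial member was called in Sst-like nuclei (*Cars2*). Sex follows the replicate number, so the replicate block is also a block for sex. The part of sex in differences between replicates was not tested. Deviations of same-numbered libraries correlated at 0.18, 0.12, 0.15 and 0.23 in DG-like, Pvalb-like, Sst-like and all neuron-like nuclei, but with only 2 pairs the numbers were not taken as pairing. In Sst-like and all neuron-like nuclei, 0 of the 10 member fold changes called changed sign under the alternatives run, but 25 of 60 not called did under some alternative. So did 5 of the 10 group medians in Sst-like, DG-like, Pvalb-like, OPC-like and all neuron-like nuclei, all of them mitochondrial, which went for example from -0.09 to 0.08 after thinning in all neuron-like and from 0.02 to -0.19 without SynCre-labelled replicate 1 in Sst-like nuclei. *Kars*, *Qars*, *Pars2* and *Vars2* fell below the count filter in Sst-like or OPC-like nuclei.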
